A study of Mus musculus with 23 samples.

Results

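The comparison is of the App knock-in AppNLGF with wild type, both with the p16 gene intact, by poly-A RNA sequencing of mouse hippocampus. It takes all libraries labelled AppNLGF (genotype APP NLGF/NLGF, n = 5, library numbers 13 to 17) and all labelled WT (n = 6, library numbers 1 to 6), which makes 11 of the 23 libraries of the study. The remaining libraries came from mice without p16, with the knock-in (AppNLGF_p16KO, n = 6) or without it (p16KO, n = 6). All mice were about 5 months old and each library holds both hippocampi of 1 mouse. In AppNLGF mice the endogenous App gene carries a humanised amyloid-beta sequence with familial Alzheimer mutations, expressed from its own promoter without a transgene and so not overexpressed by design. The 12 libraries without p16 share no mouse with the 11 compared here, and they served to estimate the spread and as another estimate of the knock-in effect.

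Microglia are the resident macrophages of the brain. Around amyloid deposits they are known to take on a disease-associated state that depends on Trem2, a lipid-sensing surface receptor, and on its signalling adaptor Tyrobp. Genes of phagocytosis, lysosomes, complement and chemokines are described to rise in that state while genes typical of resting microglia fall. Astrocytes near deposits are known to make more of the filament protein Gfap, and neurons transcribe immediate early genes such as Egr2, Arc and Fos after synaptic activity.

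The AppNLGF libraries held 40693561 to 56973131 counts and the WT libraries 54595296 to 58715671 counts, with 3.74% to 3.99% of counts on mitochondrial genes in AppNLGF and 3.03% to 3.92% in WT. Xist exceeded the summed Y-linked genes in 2 of 5 AppNLGF and 3 of 6 WT libraries. Library numbers run by genotype, so an order of handling cannot be told apart from genotype. Markers of hippocampal neurons, summed over 5 genes, were at 2027 to 2241 CPM in AppNLGF and 1979.8 to 2239 CPM in WT. Among the AppNLGF libraries 2 stood apart, in genes picked after their values were seen. AppNLGF 14 held 33.6 CPM of Gabra6 (CPM are counts per 1000000 counts of a library, after scaling) and 92.1 CPM of Cbln3, genes of cerebellar granule cells, while the other 4 AppNLGF libraries held at most 0.152 and 0.537 CPM and the WT libraries at most 0.606 and 1.44 CPM. AppNLGF 16 held 281 reads of BC023719, a gene within the H2 histocompatibility region of chromosome 17, against 1 read in the other 4 AppNLGF libraries together and 2 reads in the 6 WT libraries together. Leaving out AppNLGF 14 gave 52 called genes and leaving out AppNLGF 16 gave 65, in place of the 62 described next.

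In AppNLGF hippocampus few genes passed the test, nearly all of them higher and many known from microglia. The number called lower depended on the method, with 3 in the main fit, 11 in a fit to the compared groups alone and 27 in DESeq2. At a Benjamini-Hochberg adjusted p under 0.05 in edgeR's quasi-likelihood test, 62 of 19423 genes tested (0.319%) were called, 59 of them higher (0.304%) and 3 lower (0.0154%) in AppNLGF. With so small a share called, 0 calls in a short list of genes says little about that list. The largest rises were in Cst7, Ccl3, Olfr111, Itgax and Clec7a, and the 3 genes that fell were Egr2, Sik1 and Stmn4. Of the rising genes, 34 stand in the lists of microglial, Trem2 signalling, complement, chemokine and cytokine, cathepsin or lysosomal genes. Complement, cathepsin and lysosomal genes are not particular to microglia, so the 34 is no count of microglial genes. Of the 62, 24 are in none of the lists. The rising genes had a median log2 change of 0.75, with a range of 0.31 to 5.04, beside a median of -0.00 over all genes tested. Their summed level was 1729.8 ± 90.2 CPM in AppNLGF and 1172 ± 51.8 CPM in WT (SD, n = 5 and 6), with 1572 to 1800 CPM in the AppNLGF libraries and 1122 to 1252 CPM in the WT libraries. The groups did not overlap in that sum, but its genes were chosen by their rise in these same libraries, so the gap adds no support. In bulk tissue, more microglia and more RNA per microglial cell cannot be told apart.

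Taken singly, 54 of the 59 rising genes had every AppNLGF library above every WT library, and 204 of all genes tested (1.05%) did. All 3 falling genes had every AppNLGF library below every WT library, and 161 of all genes tested (0.829%) did. Scarce genes made the larger changes. The 15 rising genes under 1 CPM in WT had a median log2 change of 2.18, the 26 genes from 1 to 10 CPM had 0.72, and the 18 genes at 10 CPM or more had 0.54. Without adjustment, 1658 genes had a p under 0.05, of which 844 were higher and 814 lower in AppNLGF.

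**Figure D1:**
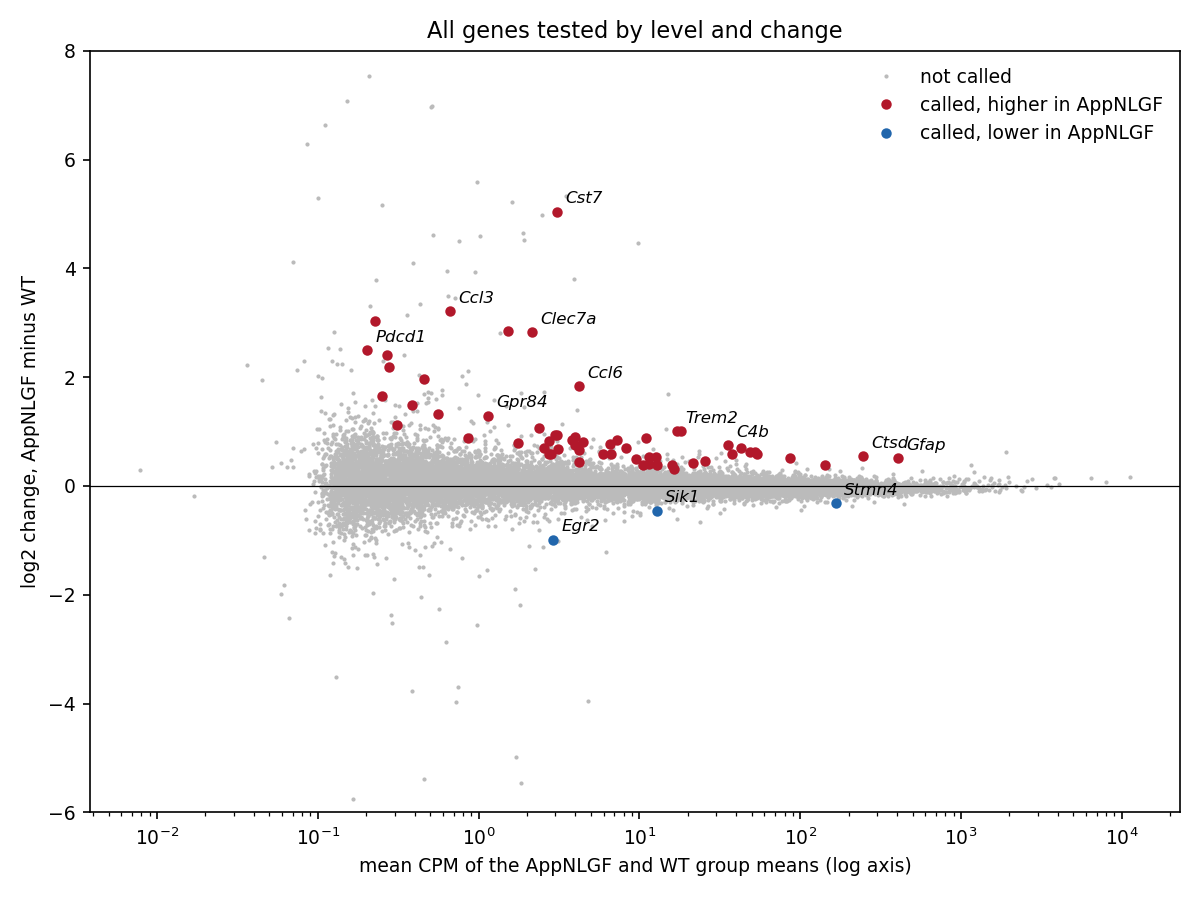
Each point is 1 of the 19423 genes tested, by the mean of its AppNLGF and WT levels in CPM (log axis) and its log2 change, AppNLGF minus WT. The 59 genes called higher (red) reach log2 5.04 in Cst7, and the 3 called lower (blue) are Egr2, Sik1 and Stmn4.

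Receptors and adhesion molecules formed the largest group by role, with 22 of the 62 genes, all higher in AppNLGF (median log2 change 0.87). Roles were assigned after the calls were known. Trem2 (chromosome 17, 48346401 to 48354147, GRCm38) measured 23.0, 21.1, 26.0, 20.9 and 22.9 CPM in AppNLGF and 11.0, 11.6, 11.5, 10.4, 10.0 and 13.4 CPM in WT. Its adaptor Tyrobp (chromosome 7, 30413760 to 30417585) measured 25.0, 24.3, 28.1, 20.2 and 24.2 CPM in AppNLGF and 12.6, 11.2, 13.5, 11.3, 11.1 and 13.1 CPM in WT. Receptor and adaptor rose by nearly the same amount, with log2 changes of 1.01 ± 0.09 for Trem2 and 1.01 ± 0.09 for Tyrobp (SE, adjusted p = 9.21e-08 for each), and the lowest AppNLGF library lay well above the highest WT library for both.

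Clec7a, which encodes a beta-glucan receptor of macrophages and is annotated here as a polymorphic pseudogene (chromosome 6, 129461591 to 129472779), measured 4.24, 3.41, 3.44, 2.63 and 5.06 CPM in AppNLGF and 0.358, 0.464, 0.750, 0.523, 0.374 and 0.679 CPM in WT. Itgax, an integrin alpha chain found on dendritic cells and on microglia at deposits (chromosome 7, 128129547 to 128150657), measured 2.80, 1.77, 3.11, 2.11 and 3.59 CPM in AppNLGF and 0.239, 0.392, 0.604, 0.252, 0.280 and 0.459 CPM in WT. Both genes were under 1 CPM in every WT library and above 1 CPM in every AppNLGF library, with log2 changes of 2.83 ± 0.24 and 2.84 ± 0.25 (adjusted p = 9.21e-08 for each). Gpr84, a receptor for medium-chain fatty acids (chromosome 15, 103308235 to 103310612), measured 1.31, 1.52, 1.83, 1.49 and 1.98 CPM in AppNLGF and 0.477, 0.677, 0.476, 0.974, 0.654 and 0.713 CPM in WT. It rose by log2 1.29 ± 0.19 (adjusted p = 4.93e-04) and its groups did not overlap, although WT 4 came nearest to the AppNLGF libraries.

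The other receptor genes changed less or were scarcer. Fcer1g, the signalling chain shared by Fc receptors, averaged 10.2 ± 1.57 CPM in AppNLGF and 6.28 ± 0.785 CPM in WT (log2 change 0.69 ± 0.10, adjusted p = 6.92e-04). Itgb2, the beta chain that pairs with Itgax, rose by log2 0.59 ± 0.10 (adjusted p = 0.00309), and Csf3r, the receptor for granulocyte colony-stimulating factor, rose by 0.85 ± 0.13 (adjusted p = 6.06e-04). The SLAM-family receptors Ly9 and Cd84 rose by 1.96 ± 0.30 and 0.67 ± 0.12, the small surface glycoprotein Cd52 by 1.06 ± 0.17 and the tetraspanin Cd37 by 0.67 ± 0.12. The Fc receptor Fcgr3 rose by 0.52 ± 0.12, the Cd300-family receptor Cd300c2 by 0.59 ± 0.11, and Cd180 and Ly86, whose products pair in a Toll-like receptor complex, by 0.89 ± 0.17 and 0.53 ± 0.12. Lilrb4a, Lair1 and Cd33, which carry inhibitory motifs, rose by 2.18 ± 0.45, 0.39 ± 0.08 and 0.38 ± 0.08. Fcgr3 and Ly86 overlapped between the groups and each lost its call when any 1 of 9 libraries was left out, with adjusted p-values of up to 0.164 and 0.159.

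Pdcd1 and Lag3, inhibitory receptors best known from T cells, were both higher in AppNLGF. Pdcd1 averaged 0.345 ± 0.0889 CPM in AppNLGF and 0.0596 ± 0.0253 CPM in WT and Lag3 9.32 ± 1.65 CPM in AppNLGF and 5.17 ± 0.419 CPM in WT, with log2 changes of 2.50 ± 0.42 and 0.85 ± 0.14 (adjusted p = 0.00207 for each). Core lymphocyte markers, summed over 5 genes, were at 1.00 to 3.02 CPM in AppNLGF and 0.654 to 2.80 CPM in WT and overlapped between the groups. Their part in these results was not tested. Olfr111, annotated as an olfactory receptor (chromosome 17, 37508030 to 37532449), averaged 0.407 ± 0.128 CPM in AppNLGF and 0.0480 ± 0.0399 CPM in WT (log2 change 3.03 ± 0.52, adjusted p = 0.00275). Its neighbour Olfr110 lay below the count filter, with 32 reads over the 5 AppNLGF libraries and 2 reads over the 6 WT libraries.

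**Figure D2:**
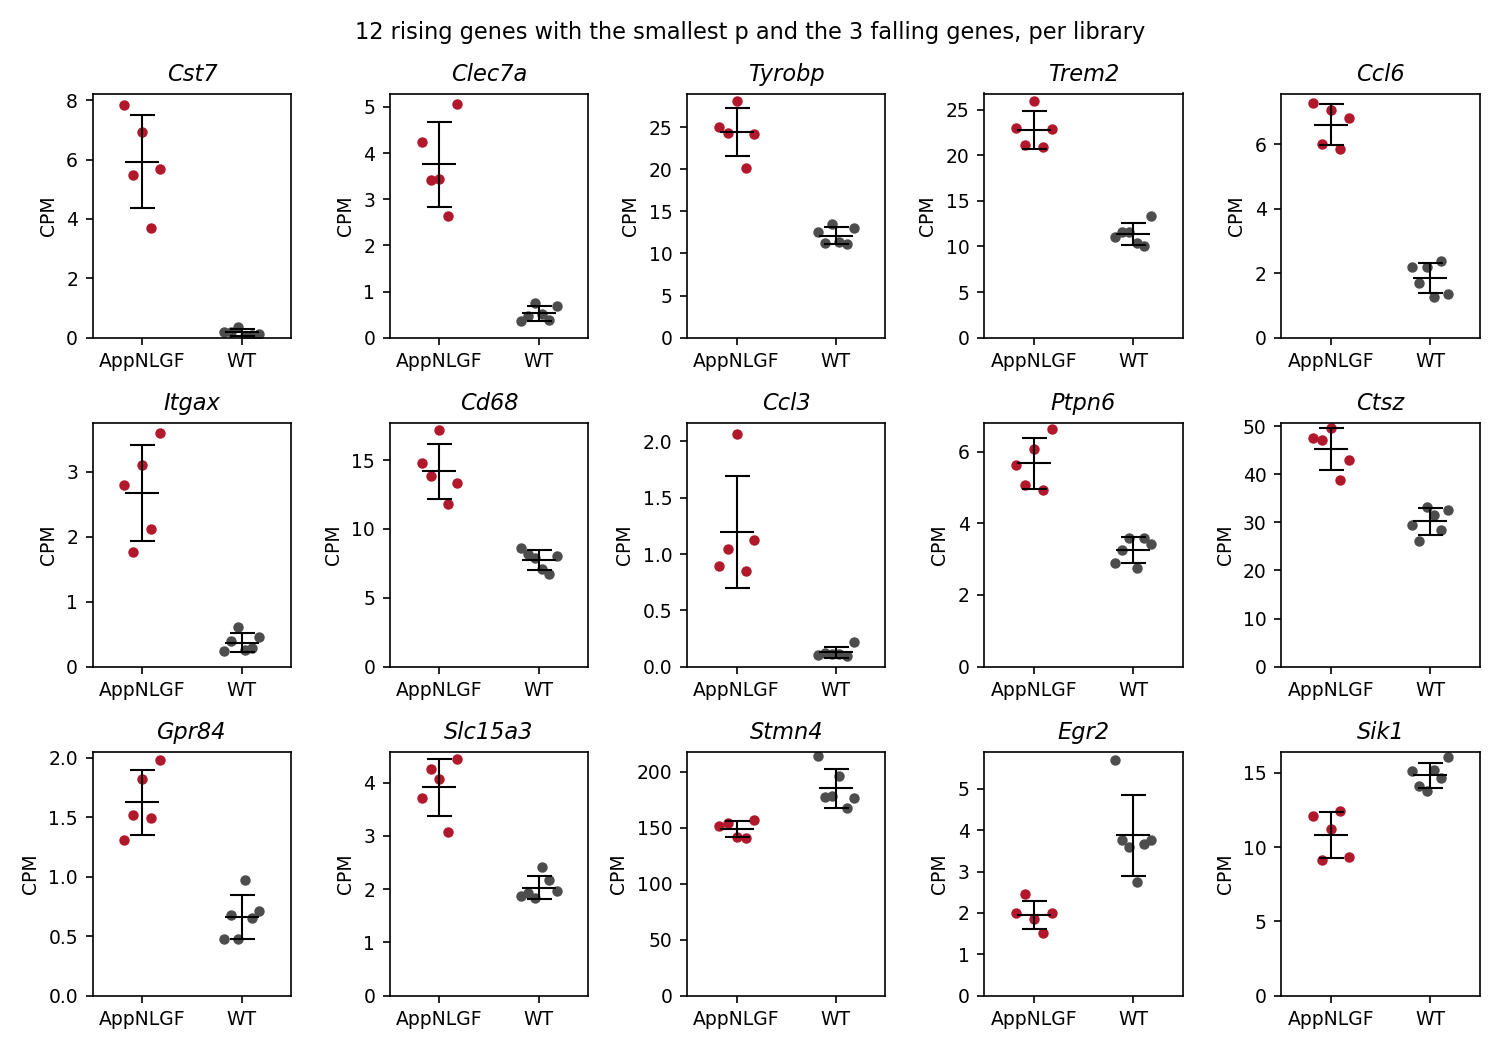
CPM of each library for the 12 rising genes of smallest p and the 3 falling genes, with AppNLGF left of WT. Points are libraries and the bars give mean and SD. The groups overlap in none of these 15 genes, which were picked by their calls in these same libraries. Cst7 shows 3.71 to 7.84 CPM in AppNLGF against 0.0721 to 0.366 CPM in WT.

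Lysosomal and phagosomal genes gave 14 calls, all higher and none with overlapping groups. Of the 59 rising genes as a whole, called from these same libraries, 54 did not overlap. Cst7 encodes cystatin F, an inhibitor of lysosomal cysteine proteases (chromosome 2, 150570415 to 150578944), and measured 7.84, 5.50, 6.92, 3.71 and 5.69 CPM in AppNLGF and 0.205, 0.196, 0.366, 0.0721, 0.0934 and 0.136 CPM in WT. No AppNLGF library came near the highest WT library, and the fitted change of 32.9-fold (log2 5.04 ± 0.33, adjusted p = 2.30e-09) was the largest among the called genes. Cd68, a membrane glycoprotein of macrophage lysosomes (chromosome 11, 69664213 to 69666153), measured 14.8, 13.8, 17.2, 11.8 and 13.4 CPM in AppNLGF and 8.59, 8.15, 7.87, 7.07, 6.71 and 8.05 CPM in WT. Its log2 change was 0.88 ± 0.09 (adjusted p = 1.44e-06), with AppNLGF 15 highest and AppNLGF 16 lowest of their group.

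Ctsz, the carboxypeptidase cathepsin Z (chromosome 2, 174427493 to 174439039), measured 47.6, 47.0, 49.6, 38.7 and 43.0 CPM in AppNLGF and 29.4, 26.1, 33.3, 31.6, 28.3 and 32.6 CPM in WT. Slc15a3, a peptide and histidine transporter of endolysosomes (chromosome 19, 10839727 to 10859362), measured 3.71, 4.26, 4.07, 3.07 and 4.45 CPM in AppNLGF and 1.88, 1.93, 1.83, 2.42, 2.17 and 1.97 CPM in WT. Neither overlapped between the groups, and their log2 changes were 0.58 ± 0.08 for Ctsz (adjusted p = 4.80e-04) and 0.94 ± 0.14 for Slc15a3 (adjusted p = 4.93e-04). The aspartic protease Ctsd averaged 294 ± 28.0 CPM in AppNLGF and 201 ± 20.0 CPM in WT, and the cysteine protease Ctss averaged 102 ± 10.6 CPM in AppNLGF and 71.7 ± 6.05 CPM in WT, with log2 changes of 0.55 ± 0.09 and 0.51 ± 0.09. Ctsz, Ctsd and Ctss were the 3 calls among 13 cathepsin genes, whose median was 0.16, beside 0.304% called higher of all genes tested. Ctsb and Ctsl, abundant cysteine cathepsins, had log2 changes of 0.08 and 0.08 (adjusted p = 0.817 and 0.818).

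Of 38 genes of lysosomal hydrolases and membrane proteins, 3 rose, beside 0.304% of all genes tested, with a list median of 0.04. Among them were Cd68 and the beta-glucuronidase Gusb (log2 change 0.31 ± 0.06). Grn, the precursor of lysosomal granulins, did not pass (log2 change 0.26 ± 0.06, adjusted p = 0.0775). Among phagosomal genes, the oxidase subunit Cyba rose by log2 0.58 ± 0.09, the proton channel Hvcn1 by 0.75 ± 0.14 and the metal transporter Slc11a1 by 0.84 ± 0.14. The pore-forming Mpeg1 rose by 0.70 ± 0.13, the endolysosomal nuclease Pld4 by 0.50 ± 0.09, and Unc93b1, which escorts endosomal Toll-like receptors, by 0.38 ± 0.08. The call of Unc93b1 was lost without any 1 of 7 libraries, with an adjusted p of up to 0.143, and that of Gusb without any 1 of 4, with up to 0.0877.

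Complement genes rose at the start of the classical cascade and among its receptors. C1qa, C1qb and C1qc, neighbouring genes on chromosome 4 for the 3 chains of C1q, rose by log2 0.59 ± 0.09, 0.63 ± 0.11 and 0.62 ± 0.10 (adjusted p = 5.04e-04, 0.00269 and 0.00207). C1qa measured 69.4, 68.0, 69.8, 52.7 and 64.9 CPM in AppNLGF and 42.2, 42.5, 47.2, 43.1, 36.9 and 46.6 CPM in WT. All 3 chains were lowest in AppNLGF 16, at 52.7, 50.5 and 48.1 CPM, which was still above every WT library. C4b, a component downstream of C1q (chromosome 17, 34728380 to 34743882), measured 48.3, 35.7, 40.0, 53.8 and 44.1 CPM in AppNLGF and 24.2, 27.6, 28.5, 24.9, 28.1 and 25.2 CPM in WT. Its log2 change was 0.75 ± 0.12 (adjusted p = 0.00143), it was highest in AppNLGF 16, whose H2-region genes stood apart, and its call held without that library. Reads could be shared between C4b and its near-identical copy C4a, so its value is uncertain. C4a averaged 1.40 ± 0.521 CPM in AppNLGF and 1.02 ± 0.225 CPM in WT (adjusted p = 0.729). The anaphylatoxin receptors C3ar1 and C5ar2 rose by 0.94 ± 0.15 and 0.87 ± 0.16 (adjusted p = 0.00145 and 0.00606), while C5ar1 did not pass (log2 change 0.63 ± 0.16, adjusted p = 0.124). With Itgax and Itgb2, which form a complement receptor, 8 of 21 complement genes were called, all higher, and the list median was 0.24. Among all genes tested, 0.304% were called higher.

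Chemokine genes changed strongly from low levels. Ccl6, a chemokine of myeloid cells (chromosome 11, 83587882 to 83593087), measured 7.27, 6.01, 7.07, 5.84 and 6.81 CPM in AppNLGF and 2.20, 1.69, 2.18, 1.26, 2.39 and 1.36 CPM in WT. Ccl3, which attracts monocytes (chromosome 11, 83647844 to 83649355), measured 0.895, 1.04, 2.07, 0.852 and 1.12 CPM in AppNLGF and 0.102, 0.125, 0.110, 0.108, 0.0934 and 0.221 CPM in WT. Neither overlapped between the groups, and AppNLGF 15 held the highest level of Ccl3. The log2 changes were 1.84 ± 0.16 for Ccl6 and 3.21 ± 0.36 for Ccl3 (adjusted p = 9.21e-08 and 7.05e-06). Ccl4, which lies next to Ccl3, rose by 2.41 ± 0.38 (adjusted p = 0.00133). These were the 3 calls among 25 chemokine and cytokine genes, whose median log2 change was 0.42, beside 0.304% called higher of all genes tested. Ccl9 (log2 change 0.59 ± 0.14, adjusted p = 0.0737) and the cytokine Il1a (0.83 ± 0.22, adjusted p = 0.151) had every AppNLGF library above every WT library and did not pass.

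Intracellular signalling and transcription gave 10 calls, all higher. Ptpn6, a phosphatase recruited by inhibitory receptors (chromosome 6, 124720707 to 124738714), measured 5.63, 5.08, 6.08, 4.94 and 6.62 CPM in AppNLGF and 2.88, 3.24, 3.60, 2.74, 3.59 and 3.41 CPM in WT. It rose by log2 0.80 ± 0.11 (adjusted p = 4.50e-04) without overlap. Irf8, a transcription factor of the macrophage lineage, averaged 8.32 ± 1.16 CPM in AppNLGF and 4.86 ± 0.271 CPM in WT (log2 change 0.78 ± 0.11, adjusted p = 4.93e-04). The small GTPase gene Arl11 rose by 1.32 ± 0.20, the adaptors Samsn1 and Lat2 by 0.79 ± 0.15 and 0.70 ± 0.14, and the lipid kinase subunit Pik3cg by 0.44 ± 0.10. Plek, a substrate of protein kinase C in blood cells, rose by 0.41 ± 0.08, and the actin regulators Myo1f and Arpc1b by 0.60 ± 0.12 and 0.41 ± 0.09. Trim14 rose by 1.13 ± 0.25 with overlapping groups. The pseudogene Rpl13a-ps1, whose reads cannot be told from its parent gene Rpl13a with certainty, and the predicted antisense gene Gm33858 rose by 1.49 ± 0.30 and 1.66 ± 0.35, at under 1 CPM. Without AppNLGF 17 the adjusted p was 0.0663 for Lat2 and 0.0540 for Plek. Calls also ended on leaving out any 1 of several libraries for Cd180 (2 libraries, adjusted p up to 0.0750), Rpl13a-ps1 (3, 0.112), Arpc1b (4, 0.151), Myo1f (5, 0.104), Lilrb4a (6, 0.0854), Cd33 (6, 0.123), Lair1 (7, 0.123), Pik3cg (7, 0.112), Gm33858 (7, 0.120), Olfml3 (8, 0.101) and Trim14 (8, 0.127). By library, leaving out AppNLGF 15 ended the most calls, 16, and leaving out AppNLGF 16 the fewest, 3. Of 19 Trem2 signalling partners 5 rose (Tyrobp, Trem2, Ptpn6, Lat2 and Pik3cg), beside 0.304% of all genes tested, with a list median of 0.29.

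Promoter sequences are shown for 3 rising genes and for Egr2, each with a window that holds a motif. The window of Cst7, the called gene with the largest change, held none of the motifs below and is not shown. They come from RefSeq (GRCm38.p6) and run from 250 bases before to 50 bases after a transcript start, 5′ to 3′ on the gene's strand. Capitals mark the motif found, which is a PU.1 site (GAGGAAGT) in C1qc, an ETS and IRF composite (GGAANNGAA) in Clec7a, both in overlap in Ctss, and a CArG box of serum response factor in Egr2, each on either strand. PU.1 and Irf8 are transcription factors of the macrophage lineage, and serum response factor drives activity-induced genes in neurons. The positions are chr4:136892865-136893164 on the minus strand for C1qc, chr3:95526536-95526835 on the plus strand for Ctss, chr6:129472730-129473029 on the minus strand for Clec7a and chr10:67537316-67537615 on the plus strand for Egr2. The table lists 2 promoters for Clec7a and 5 for Egr2, of which 1 each is shown, and a window with a motif was preferred.
C1qc: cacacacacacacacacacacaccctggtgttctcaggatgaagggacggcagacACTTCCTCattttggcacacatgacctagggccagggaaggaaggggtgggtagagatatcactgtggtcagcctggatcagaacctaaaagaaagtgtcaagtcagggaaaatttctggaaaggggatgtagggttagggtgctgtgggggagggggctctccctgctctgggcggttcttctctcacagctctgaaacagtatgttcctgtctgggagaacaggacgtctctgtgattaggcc
Ctss: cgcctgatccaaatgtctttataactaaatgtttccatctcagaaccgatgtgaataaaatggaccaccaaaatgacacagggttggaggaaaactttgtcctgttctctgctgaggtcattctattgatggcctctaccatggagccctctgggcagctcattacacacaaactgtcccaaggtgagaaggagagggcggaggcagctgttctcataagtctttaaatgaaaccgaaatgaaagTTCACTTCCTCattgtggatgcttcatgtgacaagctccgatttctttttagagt
Clec7a: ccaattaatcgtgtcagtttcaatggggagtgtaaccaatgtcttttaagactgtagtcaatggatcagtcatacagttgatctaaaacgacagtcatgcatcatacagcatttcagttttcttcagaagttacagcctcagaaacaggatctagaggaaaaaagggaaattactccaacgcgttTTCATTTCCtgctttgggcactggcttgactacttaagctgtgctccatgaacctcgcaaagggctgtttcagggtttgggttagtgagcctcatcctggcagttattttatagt
Egr2: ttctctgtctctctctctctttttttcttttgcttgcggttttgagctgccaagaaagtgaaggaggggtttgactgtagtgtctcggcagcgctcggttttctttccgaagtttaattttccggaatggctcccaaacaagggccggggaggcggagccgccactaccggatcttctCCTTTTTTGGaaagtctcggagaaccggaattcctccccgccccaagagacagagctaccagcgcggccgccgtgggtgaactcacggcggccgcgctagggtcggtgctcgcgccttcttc

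The promoter table held 43 of the 59 rising genes and 1 of the 3 falling genes (Egr2). The PU.1 site was present for 8 of the 43 rising genes (18.6%) and for 997 of all 27025 genes of the table (3.69%). Those 8 were C1qc, Ctss, Cd37, Pld4, Samsn1, Gusb, Arpc1b and Pik3cg. The ETS and IRF composite was present for 7 of 43 (16.3%) and for 2545 of all genes (9.42%), and the CArG box for 1 of 43 (2.33%) and for 488 of all genes (1.81%). These matches are a description of letters in the window and no test was made of them.

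General microglial markers were also higher in sum. The 5 markers P2ry12, Tmem119, Cx3cr1, Csf1r and Siglech summed to 229.7 to 261 CPM in AppNLGF and 197 to 219 CPM in WT, a ratio of means of 1.16 without overlap. P2ry12, a purinergic receptor of resting microglia, averaged 48.0 ± 3.13 CPM in AppNLGF and 46.4 ± 2.37 CPM in WT (log2 change 0.05 ± 0.06, adjusted p = 0.909). The log2 change was 0.21 ± 0.09 for the membrane protein Tmem119, 0.24 ± 0.09 for the sialic acid receptor Siglech, 0.26 ± 0.07 for the growth factor receptor Csf1r and 0.26 ± 0.09 for the fractalkine receptor Cx3cr1. The adjusted p in edgeR's test was 0.527 for Tmem119, 0.404 for Siglech, 0.185 for Csf1r and 0.361 for Cx3cr1.

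Among 26 homeostatic microglial genes 5 rose and 0 fell, with 24 positive and a median of 0.26, while 0.304% of all genes tested rose. None of the 5 general markers above passed. Among the 5 called genes were Trem2, Gpr84, Cd33 and Olfml3, a secreted glycoprotein (log2 change 0.46 ± 0.10). Trem2 and Cd33 are also in the list of disease-associated genes, so the lists are not separate. The count of called homeostatic genes was 3 without AppNLGF 14, without AppNLGF 17 and without WT 2, 4 or 5. Of 29 phagocytic, Fc and Toll-like receptor genes 6 rose (Fcer1g, Cd84, Cd180, Lilrb4a, Fcgr3 and Ly86), with a median of 0.40.

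The list of disease-associated microglial genes was split. Of 36 tested, 14 rose and 0 fell, with a median of 0.38, while 0.304% of all genes tested rose. The list was chosen with earlier results of these data known. The 22 others included the lipid carrier Apoe at 1475.5 ± 97.1 CPM in AppNLGF and 1314 ± 50.8 CPM in WT (log2 change 0.17 ± 0.06, adjusted p = 0.450), the lysozyme gene Lyz2 (log2 change 0.81 ± 0.20, adjusted p = 0.118) and the tetraspanin Cd9 (0.26 ± 0.09, adjusted p = 0.346). The lipase gene Lpl was at 0.12, the phagocytic receptor Axl at 0.10, the glycoprotein Gpnmb at 0.11, osteopontin Spp1 at -0.34 and the growth factor Igf1 at -0.17 (adjusted p = 0.950, 0.742, 0.971, 0.911 and 0.688). In 24 genes of Apoe and lipid handling edgeR called 0, and the median was 0.10.

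**Figure D3:**
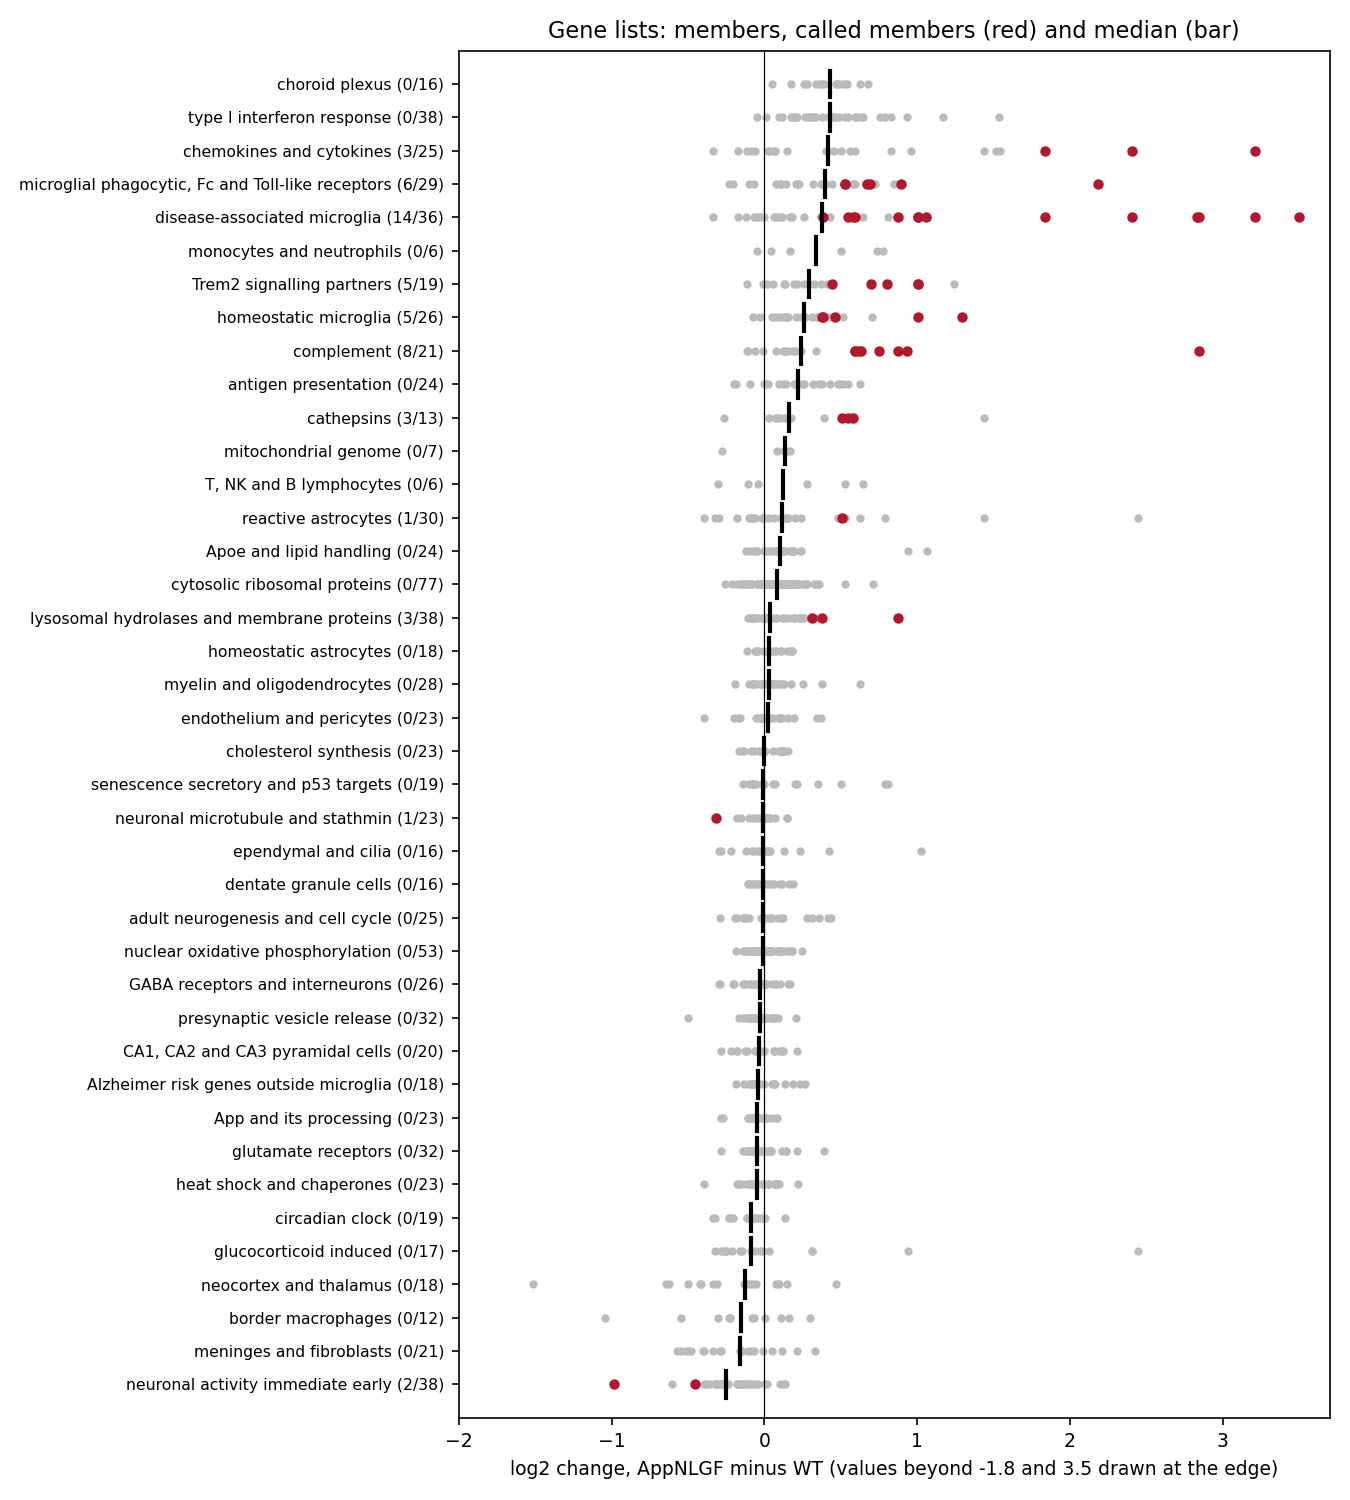
Log2 change, AppNLGF minus WT, of the tested members of 40 gene lists ordered by their medians (black bars), with values past the axis limits drawn at the edge. Red points were called, and the brackets give called over tested members. The 14 called disease-associated genes lie between 0.38 and 5.04, and the immediate early list has the lowest median, -0.25.

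Markers of other macrophages and of blood cells overlapped between the groups. Core border macrophage markers summed to 6.47 to 13.3 CPM in AppNLGF and 5.83 to 12.5 CPM in WT, and those of monocytes and neutrophils to 0.639 to 1.42 CPM in AppNLGF and 0.355 to 0.985 CPM in WT. Of the 12 border macrophage, 6 monocyte and neutrophil and 6 lymphocyte genes tested, edgeR called 0, beside 0.319% of all genes tested. That 0 is near the share over all genes and says little about these cells. Only 6 of the 16 monocyte and neutrophil genes and 6 of the 17 lymphocyte genes listed were abundant enough to test. Core choroid plexus markers summed to 1417 to 3707 CPM in AppNLGF and 114 to 3127 CPM in WT. The choroid plexus list had a median of 0.43 with 16 of 16 genes positive, 0 called and 0 without overlap. Over all genes tested, 1.05% had every AppNLGF library above every WT library.

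Gfap was the only gene of the astrocyte lists called by edgeR. It measured 478, 499, 491, 469.6 and 457 CPM in AppNLGF and 273, 352, 356, 330.2, 364 and 347 CPM in WT, a log2 change of 0.51 ± 0.09 (adjusted p = 0.00460). WT 1 was low within its group, and the lowest AppNLGF library was still above the highest WT library. The other 29 of 30 reactive astrocyte genes did not pass, among them the filament gene Vim (log2 change 0.11, adjusted p = 0.774) and the protease inhibitor Serpina3n (-0.08, adjusted p = 0.993), and the list median was 0.11. Core astrocyte markers summed to 3385 to 3926 CPM in AppNLGF and 3513 to 3835.5 CPM in WT.

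The 3 genes that fell are expressed in neurons. Egr2, a transcription factor induced by activity (chromosome 10, 67535475 to 67542188), measured 2.00, 2.45, 1.84, 1.51 and 2.00 CPM in AppNLGF and 5.70, 3.76, 3.60, 2.74, 3.68 and 3.77 CPM in WT. Sik1, a kinase induced by cyclic AMP and depolarisation (chromosome 17, 31844250 to 31855804), measured 12.1, 9.11, 11.2, 12.4 and 9.31 CPM in AppNLGF and 15.1, 14.1, 13.8, 15.2, 14.7 and 16.1 CPM in WT. Stmn4, a stathmin that binds tubulin (chromosome 14, 66344296 to 66361680), measured 151, 154, 141, 141 and 157 CPM in AppNLGF and 215, 177, 178, 197, 167 and 177 CPM in WT. No AppNLGF library reached the lowest WT library for any of the 3. The log2 changes were -0.98 ± 0.21 for Egr2 (adjusted p = 0.0328), -0.45 ± 0.10 for Sik1 (adjusted p = 0.0366) and -0.32 ± 0.07 for Stmn4 (adjusted p = 0.0258).

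These 3 calls were sensitive to single libraries. Leaving out any 1 of 8 libraries ended the call of Egr2, any 1 of 8 that of Sik1 and any 1 of 5 that of Stmn4, with adjusted p-values of up to 0.117, 0.136 and 0.111. WT 1 was the highest WT library for Egr2 and Stmn4, and without it the adjusted p was 0.111 for Egr2, 0.0857 for Sik1 and 0.0803 for Stmn4. Without WT 1 or without AppNLGF 15 no gene was called lower in AppNLGF.

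The wider list of 38 immediate early genes leaned the same way. Its median was -0.25, with 33 negative, 2 called (Egr2 and Sik1) and 7 with every AppNLGF library below every WT library. Among all 19423 genes tested, 9790 were negative, 0.0154% were called lower and 0.829% had every AppNLGF library below every WT library. Summed over the list, AppNLGF libraries held 1588.5, 1652, 1439.5, 1499 and 1488.5 CPM and WT libraries held 1831.5, 1845, 1806, 1717, 1765 and 1781 CPM, without overlap. Arc, which encodes a synaptic cytoskeletal protein, averaged 86.1 ± 10.3 CPM in AppNLGF and 117 ± 12.3 CPM in WT (log2 change -0.45 ± 0.11, adjusted p = 0.113). The nuclear receptor Nr4a1 had a log2 change of -0.40 ± 0.10 (adjusted p = 0.132) and the synaptic scaffold Homer1 of -0.30 ± 0.08 (adjusted p = 0.148), and neither overlapped between the groups. The transcription factors Fos and Npas4 were at -0.60 and 0.10 (adjusted p = 0.530 and 0.965). DESeq2 called 4 members. The number called by edgeR was 0 without AppNLGF 15, AppNLGF 17, WT 1, WT 2, WT 5 or WT 6, 1 without AppNLGF 13, AppNLGF 14, AppNLGF 16 or WT 4, and 2 without WT 3.

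Lists of other neuronal genes had medians near 0. In 23 genes of neuronal microtubules and stathmins the median was -0.01, and edgeR called 1, Stmn4. In the next 5 lists edgeR and DESeq2 each called 0. The medians were -0.05 for 32 glutamate receptor genes, -0.03 for 32 genes of vesicle release and -0.03 for 26 genes of GABA receptors and interneurons. They were -0.01 for 16 dentate granule cell genes and -0.03 for 20 pyramidal cell genes. App itself (chromosome 16, 84949685 to 85173766) averaged 1563 ± 54.1 CPM in AppNLGF and 1672 ± 60.8 CPM in WT (log2 change -0.10 ± 0.05, adjusted p = 0.572). The 23 genes of App and its processing had a median of -0.05, with 0 called and a range of -0.29 to 0.08.

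Most interferon-response genes had positive changes, and edgeR called 0 and DESeq2 2 of them. Of 38 tested, 37 were positive, with a median of 0.43, and 9632 of all 19423 genes tested were positive. Groups without overlap were seen in 0 of the 38. Every AppNLGF library lay above every WT library in only 1.05% of all genes tested, so that 0 says little about the list. The mean log2 level of the list relative to WT was 0.17, 0.09, 0.14, 0.39 and 1.08 in AppNLGF 13 to 17 and between -0.26 and 0.29 in the WT libraries. AppNLGF 17 lay apart from the other 4, and without it the list median was 0.19, with 0 called. Leaving out AppNLGF 13 or AppNLGF 14 gave 1 called gene, and the other 8 omissions of 1 library gave 0. Mx1, an antiviral GTPase, had a log2 change of 1.53 (adjusted p = 0.145), and Ifit3b, an interferon-induced RNA-binding protein, of 0.83 (adjusted p = 0.0888). Of 24 antigen presentation genes 21 were positive, with a median of 0.22. Of these genes edgeR called 0 and DESeq2 3. The beta-2-microglobulin gene B2m averaged 108 ± 14.5 CPM in AppNLGF and 80.3 ± 10.4 CPM in WT (adjusted p = 0.165 in edgeR and 0.0439 in DESeq2).

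**Figure D4:**
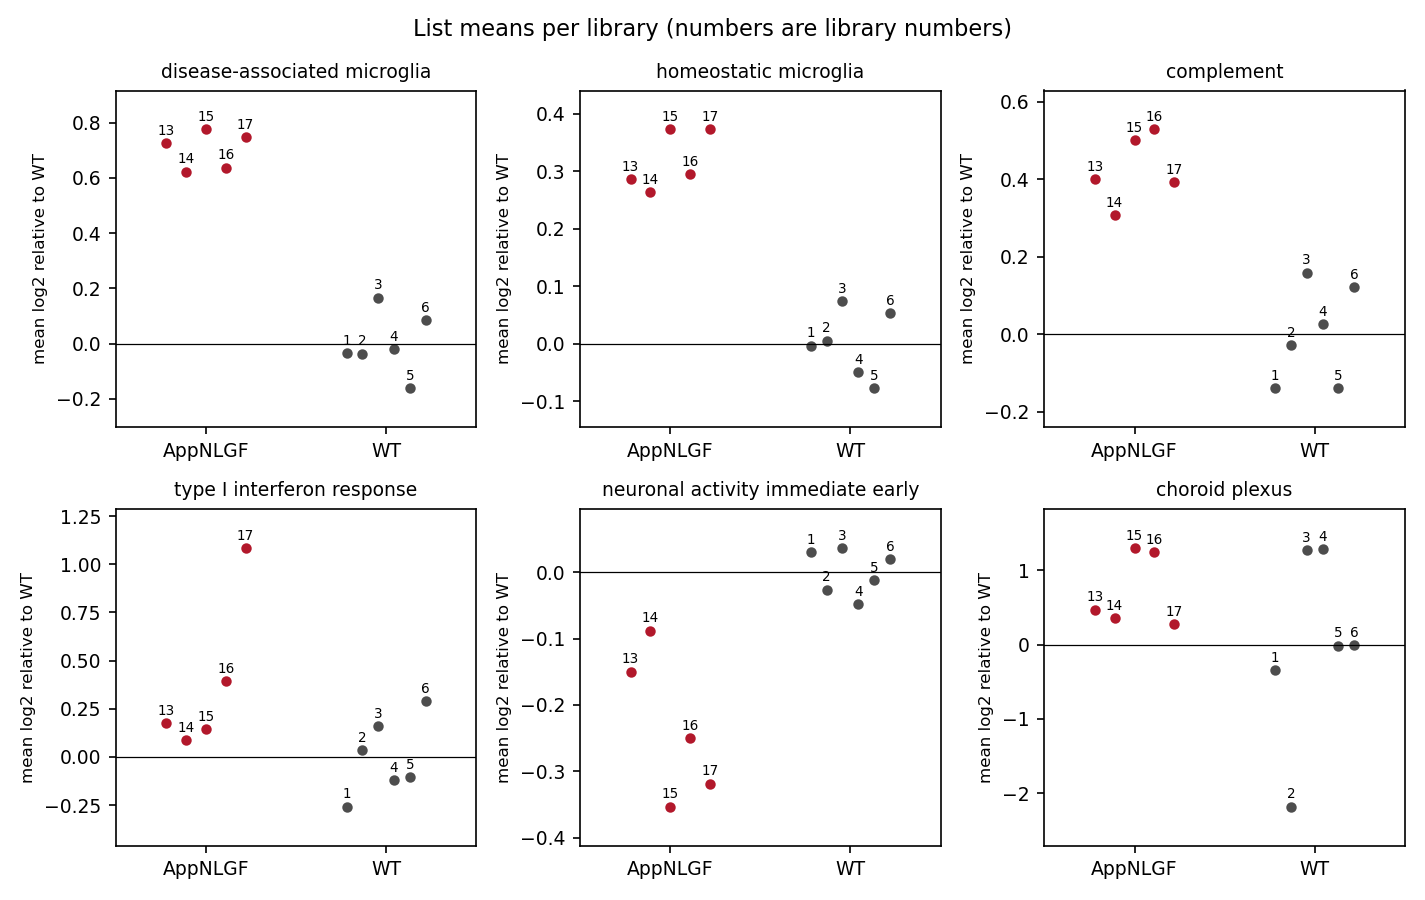
Mean log2 level of 6 gene lists in each AppNLGF and WT library relative to the mean of WT (CPM with 0.1 added), with AppNLGF left of WT and library numbers beside the points. The groups separate for the disease-associated, homeostatic, complement and immediate early lists. The interferon list is highest in AppNLGF 17, at 1.08, and the choroid plexus list overlaps.

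Cdkn2a, which encodes p16, was barely detected with the gene intact. Its reads were counted over the whole gene and not split by transcript, so they are no count of p16 transcripts alone. AppNLGF libraries held 2, 6, 9, 4 and 4 reads and WT libraries 6, 1, 3, 0, 5 and 2 reads, or 0.0946 ± 0.0442 CPM in AppNLGF and 0.0504 ± 0.0411 CPM in WT (SD, n = 5 and 6). The difference of 0.0442 CPM did not pass 0.05 (exact two-sided permutation test over 462 splits, p = 0.123). In the same test p was 0.0571 without AppNLGF 13 and 0.267 without AppNLGF 15, the lowest and highest with 1 library left out. With 25 and 17 reads in all, the test cannot decide whether Cdkn2a differed. Its neighbour Cdkn2b, another cell cycle inhibitor, averaged 0.730 ± 0.154 CPM in AppNLGF and 0.537 ± 0.138 CPM in WT (log2 change 0.43 ± 0.24, adjusted p = 0.657). In 19 genes of senescence and p53 response edgeR called 0, with a median of -0.01.

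The knock-in effect without p16, AppNLGF_p16KO minus p16KO, gave 48 called genes (0.247%), 43 higher and 5 lower. Of the 59 genes that rose with p16 present, 57 had a positive change there and 32 were called, which is 54.2% of the 59 and 74.4% of the 43. Their median log2 change was 0.47 there. The 59 were chosen by their change with p16 present, which by itself favours smaller values in the other comparison, so the medians of 0.75 and 0.47 are no measure of a difference between the backgrounds. Cst7 averaged 4.67 ± 1.13 CPM in AppNLGF_p16KO and 0.130 ± 0.0985 CPM in p16KO (log2 change 5.12 ± 0.34), and Clec7a, Itgax, Trem2 and Tyrobp changed by 2.77 ± 0.23, 2.59 ± 0.25, 0.85 ± 0.09 and 0.89 ± 0.08. Csf3r, Irf8 and C4b, among the 50 of 59 genes with a smaller change there, had 0.85, 0.78 and 0.75 with p16 and 0.30, 0.37 and 0.22 without it. Their interaction did not pass (adjusted p = 0.897 for each in edgeR). Others had a larger change there, such as Cd68 with 0.88 and 0.97. C5ar2 was at -0.07 ± 0.15 without p16 (interaction log2 -0.95 ± 0.22, unadjusted p = 2.49e-04, adjusted p = 0.897).

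Across all genes no difference between the backgrounds passed the test. The interaction of knock-in and p16 loss gave 0 called genes in edgeR (0%), a lowest adjusted p of 0.897 and 1021 genes at an unadjusted p under 0.05. The smallest unadjusted p-values belonged to C5ar2, Bnip5 and Pamr1, the last 2 with interaction log2 values of 0.62 ± 0.15 and 0.60 ± 0.15 (adjusted p = 0.897 and 0.897). DESeq2 called 1 gene, Gm18733 (adjusted p = 0.0101), a gene of the H2 region with 62 reads in AppNLGF 16 and 0 in the other AppNLGF and all WT libraries. Gm18733 also had 167 reads over the p16KO libraries and 344 reads over the AppNLGF_p16KO libraries, of which 5 held reads. Egr2, Sik1 and Stmn4 were at -0.14 ± 0.20, -0.09 ± 0.09 and -0.07 ± 0.06 without p16, all negative and none called, and the immediate early list had a median of -0.12 with 0 called. Without AppNLGF_p16KO 21 and 22, an omission chosen after seeing the data, the count of 48 was 18.

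**Figure D5:**
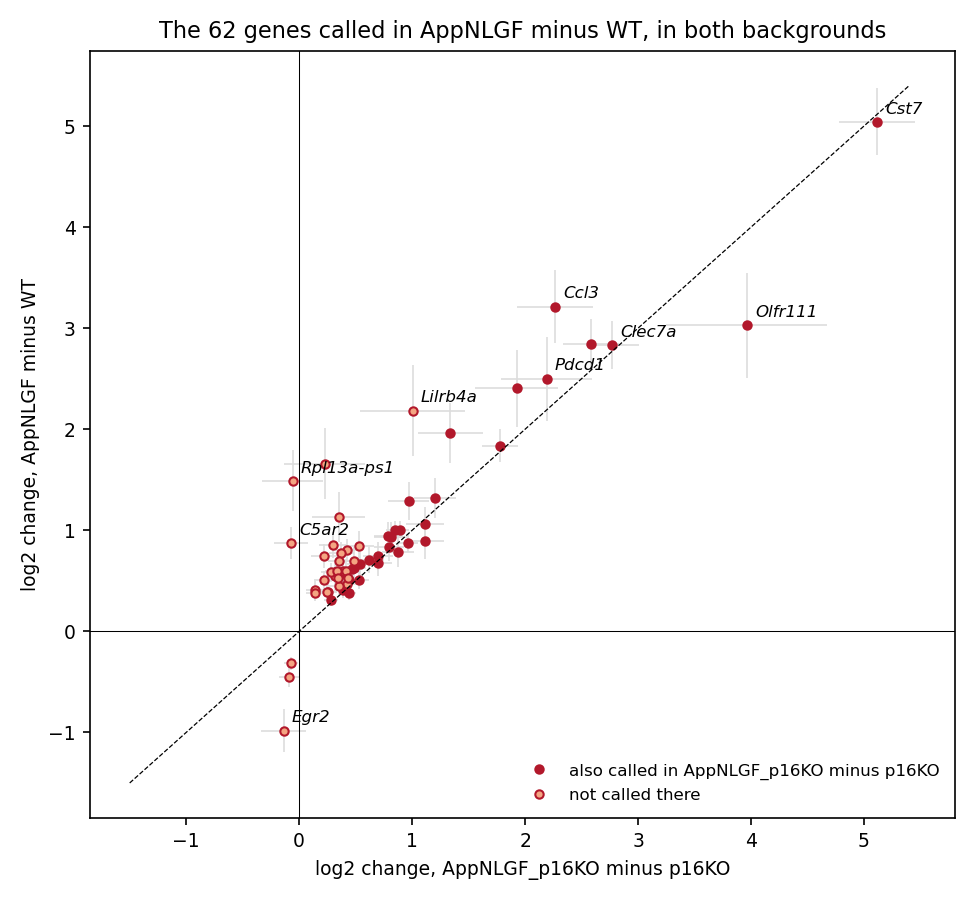
Log2 change of the 62 called genes with p16 present (vertical axis, AppNLGF minus WT) and without p16 (horizontal axis, AppNLGF_p16KO minus p16KO), with SE bars and the line of equality. Dark red points were called in both comparisons, 32 of the 59 rising genes. The genes were chosen by the vertical axis, so their place relative to the line is no measure of a difference.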

How the data were processed

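Poly-A RNA of both hippocampi of 23 mice was sequenced with a stranded kit, without molecular identifiers. The authors deposited 1 table of raw counts of uniquely aligned reads per gene (37173 genes, Ensembl annotation on GRCm38, per the labels). Reads were processed with cutadapt 4.2, Bowtie2 2.3.5 and STAR 2.7.10b, per the submitters' processing notes, which also name DESeq2 1.45.3.

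Groups follow the genotype labels. Genes were kept with edgeR 4.0.16 (R 4.3.3; filterByExpr, minimum count 10), leaving 19423, and scaled by TMM. One quasi-likelihood model with robust dispersion was fitted to the 4 genotypes, with 19 residual degrees of freedom. The tests were AppNLGF minus WT, AppNLGF_p16KO minus p16KO and their interaction, with Benjamini-Hochberg adjustment over all genes tested. CPM are counts per 1000000 of the TMM-scaled library total. Cdkn2a, below the filter, was compared by an exact permutation test. The biological coefficient of variation was 15.8%. Mice are separate animals. Genes named are the called genes, App, Cdkn2a, Cdkn2b, up to 4 further genes of smallest p per list (or the most abundant), and the 3 interaction genes of smallest p. Other uncalled genes (core microglial markers, Ctsb, Ctsl, Lpl, Axl, Gpnmb, Spp1, Igf1, Vim, Serpina3n, Fos, Npas4), the predicted gene Gm33858 and those that stood apart were named after their values were seen. Members and lists were chosen with earlier results of these data known. Alternatives were DESeq2 1.42.0, other scaling and filters, the compared groups alone, a sex score, 1 surrogate variable (sva 3.50.0), and leaving out each library. The scripts were tested on simulated data. Of the core microglial markers, 1 is not reported here. Promoters came from RefSeq (GRCm38.p6).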

Additional observations from a re-analysis of the deposited data

Results flagged for a closer look

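In groups of 5 or 6 libraries, a library was picked out when its gap to the nearest other library was a large share of the group's range. Of 334 groups examined (167 genes in AppNLGF and in WT), 21 held such a library, in 20 genes, and chance alone gives about 1 in 20 groups. Values are CPM.

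AppNLGF 16 was the lowest of its group for the complement genes C1qa (52.7), C1qc (48.1) and C1qb (50.5) and for the tubulin gene Tuba1b (32.2). AppNLGF 15 was the highest for Ccl3 (2.07). AppNLGF 17 was the highest for the cytokine Il1a (1.59) and the proteasome subunit Psmb8 (5.57), and AppNLGF 14 for the calcium-binding protein Calb1 (207).

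WT 1 was the lowest of its group for Gfap (273) and the highest for Mpeg1 (44.7), Egr2 (5.70) and Mdm2 (65.7). WT 6 was the highest for Ccl3 (0.221), Cdkn2b (0.815), Cxcl10 (0.917), Hsph1 (431) and Ccng1 (119.7). WT 5 was the lowest for Csf1r (72.4) and Ptgds (270.4) and the highest for Aspg (4.48), and WT 4 was the highest for Naglu (11.9).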

How the results depend on the processing

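The 62 calls became 153 with DESeq2, which included all 62, and lay between 62 and 78 in the other alternatives, and between 47 and 65 when 1 library was left out. Of the 62 genes 42 were called in every alternative, 52 in every one that kept all 11 libraries, and 0 changed direction. The 3 falling genes became 11 with the compared groups alone, 27 with DESeq2 and 0 to 4 when 1 library was left out. Without p16, the 48 calls became 19 with the compared groups alone, 101 with DESeq2, 18 without AppNLGF_p16KO 21 and 22, and 29 to 61 when 1 library was left out. The interaction count of 0 became 1 with DESeq2. Of 1600 alternative values of list medians and counts, 50 moved past their spread or 1.5 times. Of 105 named genes that were not called, 14 were called in some alternative. The cause of these shifts was not tested. No paired analysis was possible because the library numbers run from 1 to 23 and are not shared between groups. With 5 and 6 libraries, small changes of scarce genes were not detectable.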

Other observations

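Genes whose AppNLGF libraries differ among themselves were picked after their values were seen. H2bc1, a histone gene on chromosome 13, had 31, 24, 0, 20 and 6 reads in AppNLGF 13 to 17 and 0 reads in every WT library (adjusted p = 0.148). Without p16 it had 64 reads in 5 of 6 AppNLGF_p16KO libraries and 0 in every p16KO library. Cd300lf, an inhibitory receptor gene near the called Cd300c2 on chromosome 11, had 1.07, 0.895, 1.58, 1.38 and 0.0489 CPM in AppNLGF and at most 0.146 CPM in WT (adjusted p = 0.124). Without p16 it had 0.0698 to 1.47 CPM in AppNLGF_p16KO and 0 to 1.01 CPM in p16KO libraries, so its level without the knock-in reached into the range of the AppNLGF libraries.

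In the H2 region of chromosome 17, AppNLGF 16 held 68.2 CPM of the class I gene H2-D1, against 33.5 to 47.9 CPM in the other AppNLGF libraries and 23.6 to 33.1 CPM in WT. It held 5.66 CPM of H2-T22, against 9.73 to 12.9 CPM in the other AppNLGF libraries and 9.26 to 11.2 CPM in WT. BC023719 reached 11.3 CPM in AppNLGF_p16KO and 11.6 CPM in p16KO libraries. In AppNLGF 14 the cerebellar genes Fat2, Pcp2 and Cnpy1 were at 35.0, 14.2 and 17.3 CPM, while WT libraries held at most 0.713, 0.250 and 0.446 CPM.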
